A study of Mus musculus with 6 samples.

Results

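The E2F and DP genes encode the transcription factor family that switches genes on and off as cells enter and pass through DNA synthesis. The 10 genes, E2f1 to E2f8 with the DP partners Tfdp1 and Tfdp2, were taken by name from the 55487 genes of the deposited count table. All 10 were measured and were among the 19015 genes that passed the filter on low counts. In high glucose 3 of them were lower, the atypical repressors E2f7 and E2f8 and the activator E2f2, by between 35.8% and 54.0%. That is 3 of 10, where 14.5% of all tested genes were lower. None of the 10 was higher by the same test, where 16.9% of all tested genes were, and the other 7 did not pass it.

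Bulk RNA-sequencing was performed on 6 cultures grown from the skin of C57BL/6 mice aged 2 to 3 months, of which 4 to 6 were used for an isolation. Cells were enriched with anti-CD31 beads, and the labels call them endothelial cells. All cultures shared this origin and differed in the medium, which held 5 mmol/L glucose (normal glucose, n = 3) or 20 mmol/L glucose (high glucose, n = 3) for 48 hours. The study's interest was in how a glucose level that mimics hyperglycemia alters endothelial gene expression. The paper's legends give n = 3 per group of mice for these data. The labels do not say whether the replicates came from separate isolations, so the P values measure the spread between these cultures only.

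The total counts per culture lay between 120192466 and 146881356, and 3 counts were worth 0.02115 to 0.0258 CPM (counts scaled by library total and by TMM factors, which align the bulk of genes between libraries). The label of endothelial cell was not borne out by several defining markers. Pecam1, which encodes CD31, had between 9 and 19 counts per culture, Tie1 between 0 and 2, and Cldn5 between 0 and 4. Other endothelial markers were counted more, as Cdh5 with 91 to 242 counts, Kdr with 576 to 777 and Egfl7 with 1113 to 1464. The summed level of 12 endothelial markers was 73.8 to 77.0 CPM in normal glucose and 57.0 to 57.6 CPM in high glucose, and Flt1 made up most of it. The summed level of 12 fibroblast markers, among them the collagen gene Col1a1 and the proteoglycan gene Dcn, was 39300 to 42500 CPM in normal glucose and 71900 to 76800 CPM in high glucose. These marker levels moved with the glucose groups, and their part in the results given here was not tested. The samples are therefore called cultures. In such bulk RNA, fewer cells of a type and less RNA per cell cannot be told apart.

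E2F proteins bind DNA at promoters of genes for DNA replication, nucleotide supply and cell cycle control. E2f1, E2f2 and E2f3 are known as activators, which the retinoblastoma protein holds in check until cyclin-dependent kinases phosphorylate it. E2f4 and E2f5 act mainly as repressors with the pocket proteins p107 and p130 in resting cells. E2f6 represses without a pocket protein, through a Polycomb complex. E2f7 and E2f8 are called atypical because they bind DNA without a DP partner, and they repress E2F target genes late in S phase. Their own genes are themselves E2F targets, so that they close a feedback loop. All the other E2Fs bind DNA as heterodimers with the DP protein encoded by Tfdp1 or Tfdp2.

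The sequence near the start site is shown for the genes that fell, and for E2f3, which did not pass the test. The first of 2 E2f3 windows held letters of all 3 motifs searched. Windows were taken from RefSeq for GRCm38.p6 and run from 250 bases before to 50 bases after a start site. The motifs were the E2F motif TTTNNCGC (GCGNNAAA on the other strand) and the CHR element TTTGAA, known from late cell cycle promoters and read as TTCAAA on the other strand. The third was the CCAAT box, read as ATTGG on the other strand. Capitals mark matches on either strand, and the matches did not overlap one another. The E2f7 stretch is chr10:110745219-110745438 (plus strand, bases -220 to -1), the E2f8 stretch chr7:48881597-48881746 (minus strand, bases -150 to -1), the E2f3 stretch chr13:29986064-29986213 (minus strand, bases -150 to -1) and the E2f2 stretch chr4:136172294-136172323 (plus strand, bases 21 to 50 after the start).
E2f7: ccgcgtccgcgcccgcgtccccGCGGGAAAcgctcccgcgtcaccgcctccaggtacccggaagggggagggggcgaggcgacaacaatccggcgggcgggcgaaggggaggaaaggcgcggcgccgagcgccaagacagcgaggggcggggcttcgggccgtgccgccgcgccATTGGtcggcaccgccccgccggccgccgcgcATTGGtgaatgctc
E2f8: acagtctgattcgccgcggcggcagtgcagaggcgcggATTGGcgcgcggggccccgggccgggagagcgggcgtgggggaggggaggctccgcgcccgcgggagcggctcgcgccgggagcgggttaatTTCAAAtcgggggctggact
E2f3: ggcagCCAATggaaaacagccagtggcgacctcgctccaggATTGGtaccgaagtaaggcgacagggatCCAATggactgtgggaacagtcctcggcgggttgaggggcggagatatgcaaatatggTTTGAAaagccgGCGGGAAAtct
E2f2: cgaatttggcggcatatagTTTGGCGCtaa

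The E2f7 window held GCGGGAAA at base -198 and CCAAT boxes at bases -46 and -14. The E2f8 window held no E2F letters, but a CHR element at base -20 and a CCAAT box at base -112. The first of 2 E2f3 windows held a CHR element at base -23 and GCGGGAAA at base -11. The second E2f3 window, whose start site lay 1672 bases inside the gene, held no letters of the motifs searched. In the first of 2 E2f2 windows, E2F letters stood 5 and 40 bases after the start, in a stretch upstream of the E2f2 start that GENCODE gives. The second E2f2 window, inside the gene, held a CHR element at base -31. Among the 8 genes with a window, E2F letters were found for 4, namely E2f2, E2f3, E2f7 and Tfdp1, or in 5 of 12 windows. The 2 Tfdp1 windows overlap and held the same GCGCGAAA site, at base -43 of the first and -96 of the second. That 1 site is thus counted in 2 of the 5 windows. CHR elements stood in 25.0% and CCAAT boxes in 41.7% of the 12 windows. Over all 32851 windows the share with E2F letters was 5.17%, that with a CHR element 17.9% and that with a CCAAT box 37.4%. So 2 of the 3 genes that fell and 2 of the 5 others with a window held the E2F letters. Among the others, E2f1 and Tfdp2 had windows only inside the gene that GENCODE annotates. The RefSeq start site of the one E2f1 window, which is not printed, lay 466 bases from the GENCODE start. Those of the Tfdp2 windows lay 62430 and 62973 bases from the GENCODE start of Tfdp2. The 2 fractions therefore do not compare like positions, and no contrast is drawn from them. E2f4 and E2f5 had no window. A match of letters is a description of the sequence and says nothing of binding in these cells.

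**Figure D1:**
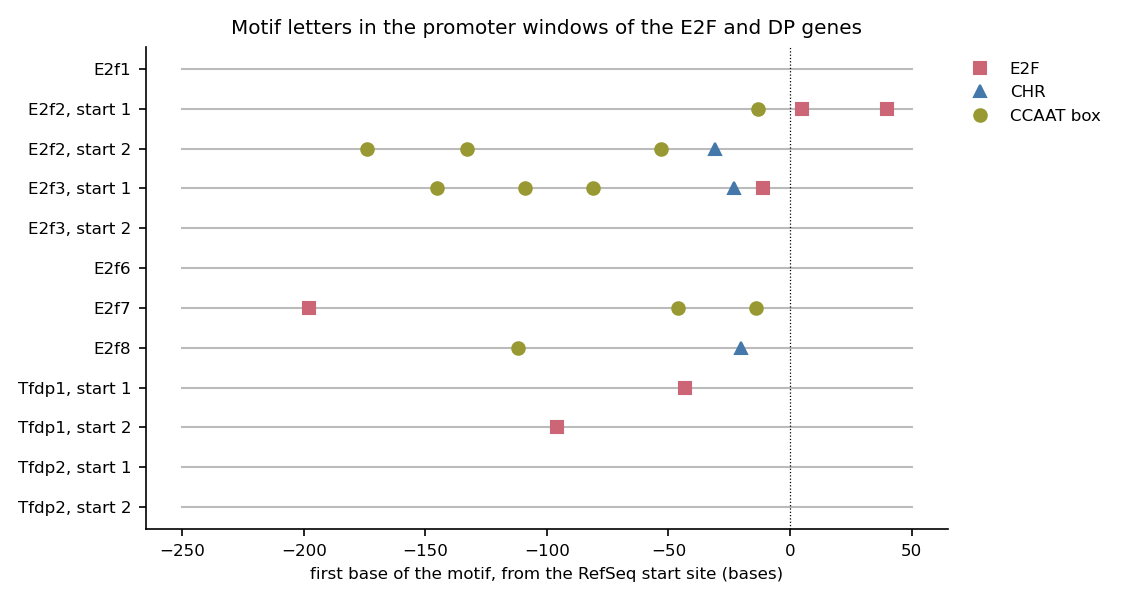
Position of motif letters in the 12 promoter windows of 8 E2F and DP genes, in bases from the RefSeq start site (dotted line at 0, negative values upstream); squares are E2F letters, triangles CHR elements and circles CCAAT boxes. E2F letters appear for E2f2, E2f3, E2f7 and Tfdp1. E2f8 carries a CHR element and a CCAAT box, which 17.9% and 37.4% of all windows hold.

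The genes differed widely in level. Per kilobase of the longest transcript, Tfdp1 was highest in normal glucose, with 30.4 ± 0.918 CPM per kilobase (SD, n = 3). E2f1 (22.2 ± 1.82) and E2f4 (21.9 ± 1.57) followed with overlapping ranges. Below them came E2f6 (8.55), E2f3 (6.34), E2f5 (4.18), Tfdp2 (2.98), E2f8 (1.09), E2f7 (0.767) and E2f2 (0.398 CPM per kilobase), and the ranges of each of these neighbors were apart. In high glucose the order was the same but for 1 pair. E2f4 (22.7 ± 0.573) then stood above E2f1 (19.6 ± 0.623 CPM per kilobase) with no overlap. The 3 genes that fell were thus the 3 with the lowest levels per kilobase in both media.

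Among the activators, E2f1 (ENSMUSG00000027490, GRCm38 chr2:154559407-154569892, minus strand), the founding member of the family, had 66.0, 55.9 and 61.4 CPM in normal glucose and 55.7, 52.2 and 54.0 CPM in high glucose. Every high glucose culture was below every normal glucose culture, by a narrow margin. The log2 fold change was -0.18 (SE 0.066, 95% interval -0.325 to -0.0332, adjusted P = 0.0619 from the quasi-likelihood test of edgeR after Benjamini-Hochberg adjustment), so E2f1 did not pass the threshold of 0.05. It did pass in 9 of 17 other fits. When each culture was left out in turn, the call changed for normal glucose replicate 2 alone, without which the log2 fold change was -0.25 (adjusted P = 0.0098, edgeR).

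E2f2 was the activator that fell. The gene (ENSMUSG00000018983, chr4:136172394-136196057, plus strand) had 2.04, 1.86 and 1.76 CPM in normal glucose and 1.23, 1.13 and 1.28 CPM in high glucose, from 225 to 264 and 131 to 174 counts. The groups did not overlap, and the gap between them was wider than the range within either group. The log2 fold change was -0.64 (SE 0.12, adjusted P = 0.00231, edgeR), a fall of the mean level from 1.89 ± 0.145 to 1.21 ± 0.0761 CPM (SD, n = 3).

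E2f3 (ENSMUSG00000016477, chr13:29906575-29986063, minus strand), the activator gene that also gives rise to a shorter repressor isoform, had 32.4, 34.0 and 30.5 CPM in normal glucose and 28.9, 29.3 and 30.3 CPM in high glucose. The groups were just apart, with normal glucose replicate 3 and high glucose replicate 3 next to each other. The log2 fold change of -0.13 did not pass (SE 0.057, 95% interval -0.258 to -0.00596, adjusted P = 0.103, edgeR), and it passed in 4 of 17 other fits. Counts per gene do not separate the isoforms of E2f3.

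The pocket-bound repressors E2f4 and E2f5 did not pass the test. E2f4 (ENSMUSG00000014859, chr8:105297663-105305370, plus strand), known as a main E2F of resting cells, had 46.3, 40.2 and 44.3 CPM in normal glucose and 46.3, 44.1 and 45.5 CPM in high glucose. Its log2 fold change of 0.055 had a 95% interval of -0.0815 to 0.192 (adjusted P = 0.535, edgeR). The sign was negative when libraries were scaled by their totals alone (-0.059) and without normal glucose replicate 2 (-0.011), so no direction is given for E2f4. E2f5 (ENSMUSG00000027552, chr3:14578641-14606309, plus strand), its close relative, had 7.42, 7.43 and 7.48 CPM in normal glucose and 7.78, 7.33 and 7.79 CPM in high glucose. The groups overlapped, with a log2 fold change of 0.037 (95% interval -0.124 to 0.197, adjusted P = 0.739, edgeR), which was negative with upper quartile factors (-0.006) and with library totals (-0.078).

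E2f6 (ENSMUSG00000057469, chr12:16810963-16839742, plus strand), the pocket-independent repressor, had 24.9, 26.5 and 26.0 CPM in normal glucose and 25.0, 25.2 and 24.1 CPM in high glucose. The groups overlapped and the log2 fold change was -0.059 (95% interval -0.176 to 0.0572, adjusted P = 0.427, edgeR).

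The atypical repressors fell most. E2f7 (ENSMUSG00000020185, chr10:110745439-110787384, plus strand) had 3.75, 4.36 and 4.50 CPM in normal glucose and 1.93, 1.89 and 1.97 CPM in high glucose, from 469 to 618 and 220 to 274 counts. All 3 high glucose cultures lay close together and below all normal glucose cultures. The log2 fold change was -1.12 (SE 0.10, 95% interval -1.35 to -0.888, adjusted P = 2.27e-05, edgeR), a fall of 54.0%. Among the 2757 genes called lower in high glucose, 422 had a larger fall than E2f7. Its exons share 86 of 9009 bases with the antisense gene 1700020G17Rik, which had 0 counts in all cultures.

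E2f8 (ENSMUSG00000046179, chr7:48866429-48881596, minus strand) had 3.31, 4.36 and 4.4 CPM in normal glucose and 2.19, 1.85 and 2.08 CPM in high glucose. Normal glucose replicate 1 was the lowest of its group, and for E2f7 too, but stayed above every high glucose culture. The log2 fold change was -0.98 (SE 0.13, 95% interval -1.27 to -0.685, adjusted P = 0.000298, edgeR), a fall of 49.2%. Of the 5443 exonic bases of E2f8, 610 are shared with the antisense gene Gm2788, and no source says that reads were assigned by strand. Gm2788 had between 6 and 28 counts per culture, against 215 to 619 for E2f8. E2f7, E2f8 and E2f2 passed the threshold in all 17 other fits, with log2 fold changes of -1.23 to -1.08, -1.12 to -0.919 and -0.755 to -0.597.

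Tfdp1 (ENSMUSG00000038482, chr8:13338751-13378448, plus strand), which encodes the main DP partner, had 81.7, 86.2 and 86.0 CPM in normal glucose and 79.6, 81.5 and 82.1 CPM in high glucose. The groups overlapped and the log2 fold change was -0.063 (95% interval -0.173 to 0.0475, adjusted P = 0.371, edgeR). Tfdp2 (ENSMUSG00000032411, chr9:96196275-96323646, plus strand), the second DP partner, had 19.6, 23.6 and 22.7 CPM in normal glucose and 25.2, 25.8 and 24.7 CPM in high glucose. It was the one gene of the family whose high glucose cultures all lay above the normal glucose cultures. Its log2 fold change of 0.20 did not pass the threshold (SE 0.071, 95% interval 0.0428 to 0.357, adjusted P = 0.0545, edgeR), and passed in 3 of 17 other fits. One of these left out normal glucose replicate 2 (0.24, adjusted P = 0.0303, edgeR). Without normal glucose replicate 1, the lowest culture of its group, the log2 fold change was 0.107 (adjusted P = 0.134, edgeR), with the trend on GC content and length removed it was 0.0866, and with library totals alone 0.0846. The level of Tfdp1 per kilobase was 11, 9.65 and 10.0 times that of Tfdp2 in normal glucose and 8.34, 8.33 and 8.78 times in high glucose.

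**Figure D2:**
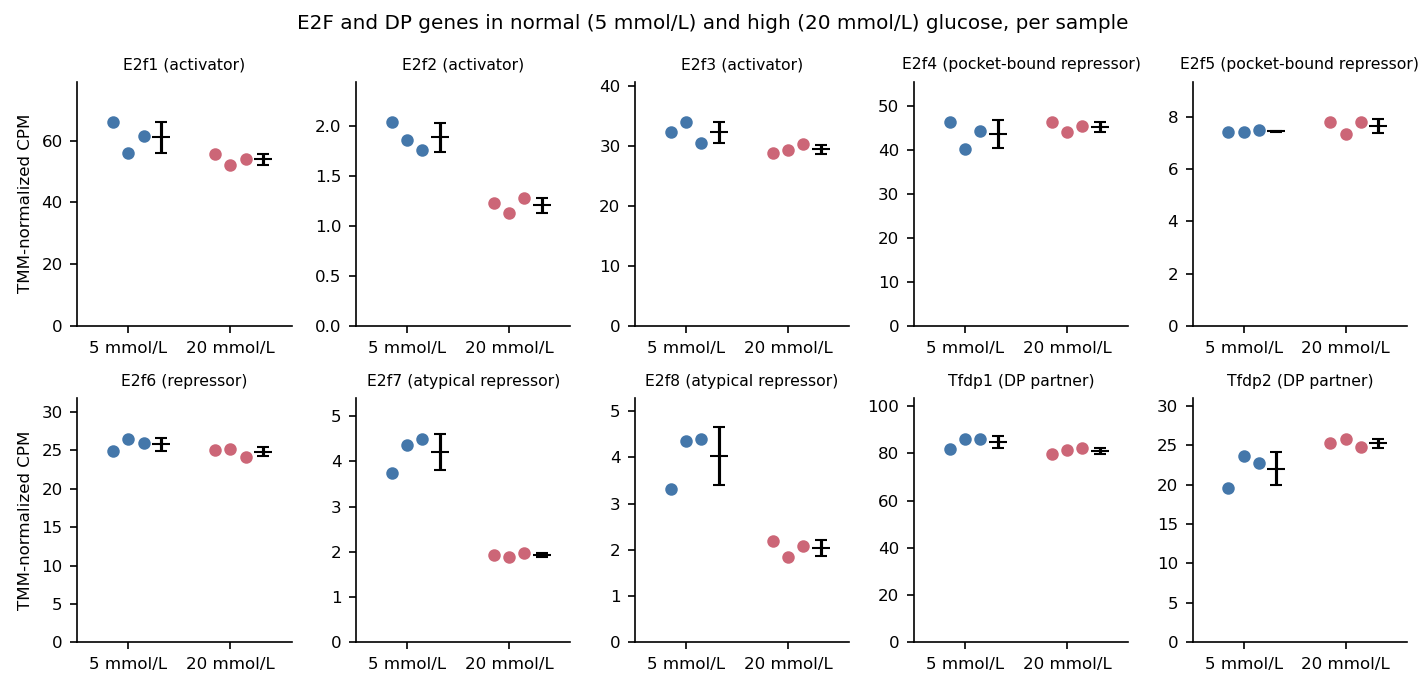
TMM-normalized CPM of the 10 E2F and DP genes in each culture (points), with the mean and SD of the 3 cultures of a group (bars); each panel starts at 0. E2f2, E2f7 and E2f8 show wide gaps between 5 mmol/L and 20 mmol/L glucose, whereas E2f4, E2f5, E2f6 and Tfdp1 overlap.

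The groups did not overlap for 5 genes lower in high glucose (E2f1, E2f2, E2f3, E2f7 and E2f8) against 21.3% of all tested genes, and for 1 gene higher (Tfdp2) against 25.1%. The median log2 fold change of the 10 was -0.097, beside 0.0062 over all tested genes. With 3 cultures against 3, the smallest P value that the two-sided exact permutation test of a single gene can give is 0.1, and these 6 genes had it. Scaling by library totals alone shifted the median of all genes by -0.115 on the log2 scale. Under it E2f1, E2f3, E2f6 and Tfdp1 also counted as lower, as did 4884 of the 19015 tested genes, against 2757 with TMM factors.

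**Figure D3:**
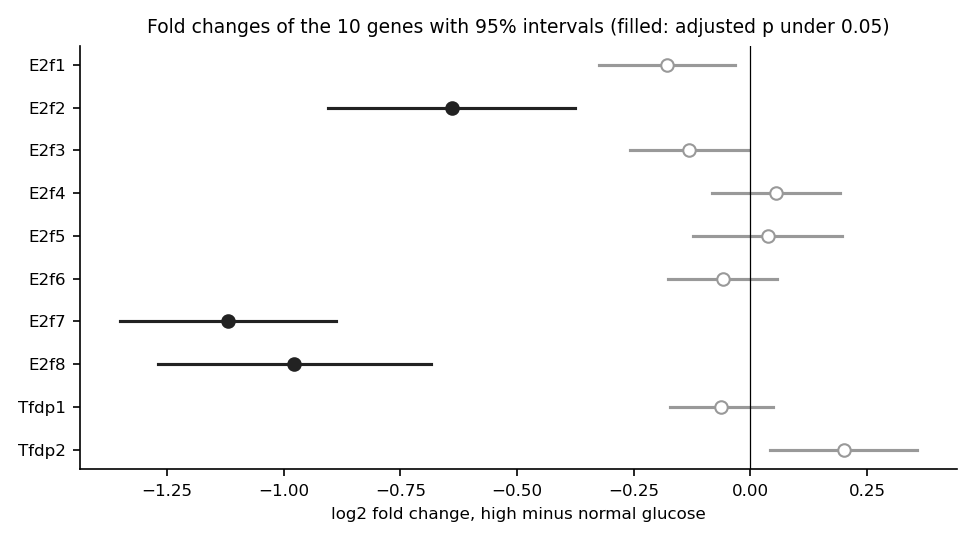
Log2 fold change of each gene in high minus normal glucose with its 95% interval (lines); filled points passed an adjusted P value of 0.05 in edgeR. E2f7 lies at -1.12, E2f8 at -0.98 and E2f2 at -0.64, and the other 7 lie between -0.18 and 0.20.

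The split between activators and repressors was followed as the share of the summed E2F level, in CPM per kilobase, that each class held in a culture. Activators held 45.2%, 43.8% and 43.6% at 5 mmol/L and 41.5%, 41.3% and 41.7% at 20 mmol/L glucose. The pocket-bound repressors held 40.3%, 39.0% and 40.2% at 5 mmol/L and 43.8%, 43.4% and 43.9% at 20 mmol/L glucose. On this scale activators held 45.2% at most, so the other classes together held more in every culture. Against the pocket-bound class alone, activators were larger in every normal and smaller in every high glucose culture. Neither E2f1 nor E2f4, the highest genes of these classes, passed the test. The order of the activator and pocket-bound classes depends on the length used. Per kilobase of all exons together, activators held a mean of 48.1% and pocket-bound repressors 41.1% in normal glucose, against 45.1% and 45.0% in high glucose, so that the classes were level there. With no length, activators were the larger class in every culture, with means of 52.8% against 28.3% in normal glucose and 50.9% against 31.8% in high glucose. On each scale the activator share was lower, and the pocket-bound share higher, in every high glucose culture than in any normal glucose culture. E2f6 held 12.1% to 14.1% in normal glucose and 12.9% to 13.9% in high glucose.

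Atypical repressors were a small class in both media. They held 2.32%, 3.17% and 3.07% of the sum at 5 mmol/L and 1.5%, 1.40% and 1.49% at 20 mmol/L glucose, with no overlap. The summed level of the 8 E2F genes was 65.4 ± 2.77 CPM per kilobase at 5 mmol/L and 61.8 ± 1.30 CPM per kilobase at 20 mmol/L glucose (SD, n = 3), and the groups overlapped. These shares are given without a test, since the members were chosen.

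Ratios between single genes, taken within a culture, were followed too. E2f1 stood to E2f4, per kilobase, at 1.03, 1.01 and 1.0 at 5 mmol/L and at 0.870, 0.858 and 0.858 at 20 mmol/L glucose. The ratio of E2f1 to E2f7 was 35, 25.5 and 27.1 at 5 mmol/L and 57.2, 54.8 and 54.3 at 20 mmol/L glucose. That of E2f1 to E2f8 was 26.7, 17.2 and 18.7 at 5 mmol/L and 34.0, 37.8 and 34.7 at 20 mmol/L glucose. So the excess of the activator E2f1 over each atypical repressor was larger in every high glucose culture than in any normal glucose culture. The ratio of E2f7 to E2f8 was 0.764, 0.673 and 0.689 at 5 mmol/L and 0.594, 0.690 and 0.638 at 20 mmol/L glucose, and these overlapped.

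**Figure D4:**
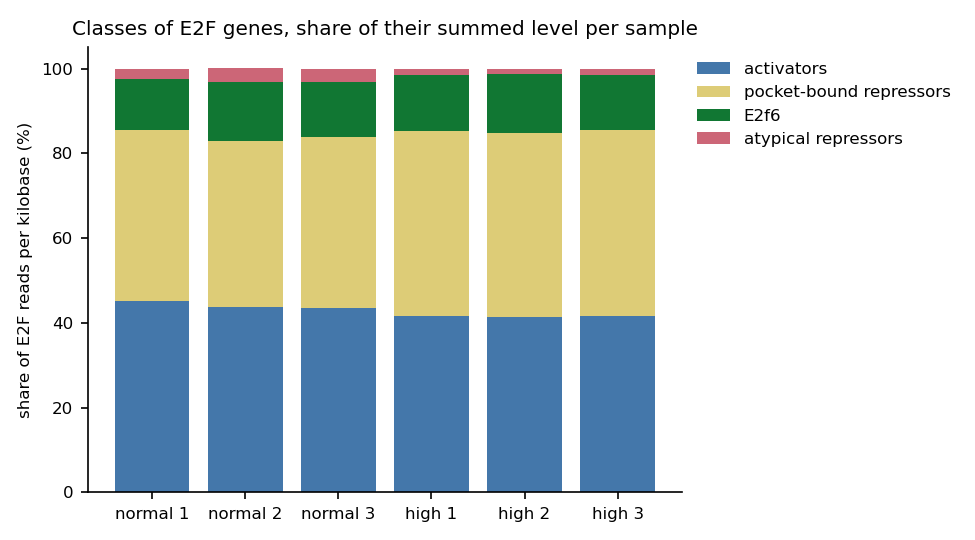
Share of the summed E2F level (CPM per kilobase of the longest transcript, in percent) held by each class in the 3 normal and 3 high glucose cultures. Activators fill 43.6% to 45.2% of the normal glucose bars and 41.3% to 41.7% of the high glucose bars, and the atypical repressors shrink from 2.32% or more to 1.5% or less.

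Known E2F target genes were examined next, in lists by function. Of 57 targets, 56 were tested, and 42 of these (75.0%) were lower and 3 (5.36%) higher in high glucose, beside 14.5% and 16.9% of all tested genes. Their median log2 fold change was -0.54, beside 0.0062 over all tested genes. In the 25 DNA replication genes, 24 were lower, with a median of -0.57. Orc1, a subunit of the origin recognition complex, fell by 1.02 on the log2 scale, from 2.02 ± 0.0825 to 0.998 ± 0.0410 CPM (SD, n = 3, adjusted P = 7.63e-05, edgeR). Pcna, the sliding clamp of DNA polymerases, fell least of the 24, by 0.26, and Mcm4, a helicase subunit, fell by 0.30. Pold1, a DNA polymerase subunit, did not pass, with a log2 fold change of -0.18.

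Nucleotide synthesis genes fell in 4 of 5 cases (80.0%, beside 14.5% of all tested genes), with a median of -0.57. Rrm2, the small subunit of ribonucleotide reductase, had 40.1, 38.7 and 39.3 CPM in normal glucose and 16.4, 17.1 and 17.7 CPM in high glucose. The groups were far apart, with a log2 fold change of -1.21 (SE 0.053, adjusted P = 1.44e-07, edgeR). Its partner subunit gene Rrm1 fell by 0.57. The thymidylate synthase gene Tyms did not pass (-0.13).

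Of 10 cell cycle control genes 8 fell (80.0%, beside 14.5% of all tested genes), with a median of -0.60. The cyclin genes Ccne2 and Ccna2 fell by 1.19 each and the kinase gene Cdk1 by 0.68. Ccne1, which like Ccne2 encodes a cyclin E, fell by 0.43. Cdc25a and Skp2 did not pass, with log2 fold changes of -0.025 and -0.14.

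The remaining target lists held both genes that fell and genes that rose. Of 10 chromatin and DNA repair genes 5 fell and 1 rose, beside 14.5% and 16.9% of all tested genes. The median of this list was -0.37, and genes that fell were more frequent in it than among all tested genes. Dnmt1, the maintenance DNA methyltransferase, was at 50.9 ± 1.90 and 50.1 ± 1.85 CPM (SD, n = 3) and did not pass. Of the apoptosis genes, 6 of 7 were tested, and 1 fell and 2 rose, with a median of -0.036. The share that fell, 16.7%, was near the 14.5% of all tested genes, and 33.3% rose, beside 16.9%. Pmaip1, which encodes the BH3-only protein Noxa, fell by 1.12, whereas Bcl2l11, which encodes the BH3-only protein Bim, rose by 0.66. Apaf1, the apoptosome scaffold gene, did not pass (0.016). Trp73 was not tested, with 0 counts in every normal glucose culture.

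Among the targets, E2F letters stood in 16 of 38 windows of targets called lower (42.1%) and in 7 of 17 windows of targets not called lower (41.2%), beside 5.17% of all windows. By gene, with several windows for some, they stood in 15 of 33 targets called lower and in 7 of 11 not called lower, and the difference was not tested. CCAAT boxes were in 60.5% and 52.9% of these windows, and CHR elements in 13.2% and 11.8%.

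The partners that set E2F activity moved in different directions. Among the pocket protein genes, Rb1, which encodes the retinoblastoma protein, had 21.8, 24.8 and 21.5 CPM in normal glucose and 25.3, 28.0 and 26.4 CPM in high glucose, and rose by 0.23 on the log2 scale (adjusted P = 0.0282, edgeR). Rbl2, which encodes p130, the pocket protein of resting cells, had 33.8, 38.6 and 35.7 CPM in normal glucose and 43.8, 46.6 and 42.6 CPM in high glucose, and rose by 0.30 (adjusted P = 0.00493, edgeR). Rbl1, which encodes p107 and is itself an E2F target, had 6.94, 8.70 and 7.91 CPM in normal glucose and 6.23, 6.86 and 5.85 CPM in high glucose, and fell by 0.31 (adjusted P = 0.0388, edgeR). The groups of each pocket protein gene did not overlap, with the smallest gap for Rbl1. The direction held in all 17 other fits for each, and the threshold was passed in 17 of them for Rbl2, in 12 for Rbl1 and in 9 for Rb1. The call of Rb1 was lost without any 1 of 5 cultures, normal glucose replicate 2 being the exception, and that of Rbl1 without normal glucose replicate 2 or 3 or high glucose replicate 1 or 3.

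Of 15 genes for cyclins D and E, their kinases and the inhibitors of these kinases, 7 fell, 3 rose and 5 did not pass. The median was -0.17. The share that fell was 46.7%, beside 14.5% of all tested genes, and the share that rose, 20.0%, was near the 16.9% of all tested genes. Ccnd1, which encodes cyclin D1, had 175, 167 and 162 CPM in normal glucose and 64.2, 64.4 and 61.8 CPM in high glucose. The log2 fold change was -1.40 (SE 0.053, adjusted P = 5.57e-08, edgeR). Ccnd2, another cyclin D gene, fell by 0.40. Inhibitor genes went both ways, as Cdkn1a (p21) fell by 0.73 and Cdkn1c (p57) rose by 0.83, from 20.3 ± 1.52 to 36.1 ± 1.22 CPM (SD, n = 3).

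The MuvB complex joins p130 and E2f4 in resting cells and B-Myb in cycling cells. Of its 5 core genes and Mybl2, which encodes B-Myb, 2 fell and 4 did not pass, with a median of -0.10. The share that fell was 33.3%, beside 14.5% of all tested genes. Mybl2 fell by 0.84, from 3.81, 3.28 and 3.46 CPM to 2.00, 1.67 and 2.23 CPM, and Lin9 by 0.38. Lin9 passed in 13 of 17 other fits. Rbbp4, a histone-binding core protein gene, did not pass (-0.081). All 12 late cell cycle genes of the B-Myb and Foxm1 program, Foxm1 among them, fell (100%, beside 14.5% of all tested genes). Their median was -1.11, and their summed level was 255 to 266 CPM in normal glucose and 129 to 130 CPM in high glucose. The cyclin gene Ccnb2 fell by 1.43, the most of the list, and Foxm1, a forkhead factor gene whose exons overlap other genes, fell by 0.69, the least. The proliferation marker Mki67 fell by 0.75 and the topoisomerase gene Top2a by 0.88. Ccne1, Ccne2, Mybl2 and Rbl1 stand in a target list and in a partner list.

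E2f6 works within the Polycomb complex PRC1.6, which is known for keeping germ cell genes silent. Of 13 genes of this complex 2 fell, 2 rose and 9 did not pass, and the median was 0.070. The shares called, 15.4% lower and 15.4% higher, were near those of all tested genes (14.5% and 16.9%). Mga, the scaffold that binds DNA with Max, rose by 0.50, from 45.6, 55.4 and 49.4 CPM to 68.0, 75.7 and 68.7 CPM, and Wdr5 rose by 0.17. Yaf2 fell by 0.22 and the deacetylase gene Hdac1 by 0.15. Of these, Mga passed in all 17 other fits, Yaf2 in 15, Hdac1 in 11 and Wdr5 in 9. Over the 5 partner lists together (pocket proteins, cyclins and kinases, MuvB, late cell cycle and PRC1.6), 24 of 49 genes were lower (49.0%), 7 higher (14.3%) and 18 not called, beside 14.5% and 16.9% of all tested genes. Of 7 germ cell genes known to be silenced by E2f6, 4 were too low to be tested (Tuba3a, Tuba3b, Taf7l and Mael), and Tuba3a had 0 counts in all 6 cultures. Smc1b, a meiotic cohesin gene, had 36, 33 and 28 counts at 5 mmol/L and 20, 7 and 21 counts at 20 mmol/L glucose, and fell by 1.02 (SE 0.34, adjusted P = 0.0450, edgeR). Its call rested on few counts and was lost without any 1 of the 6 cultures. Stag3 and Slc25a31 did not pass (-0.13 and -0.48).

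**Figure D5:**
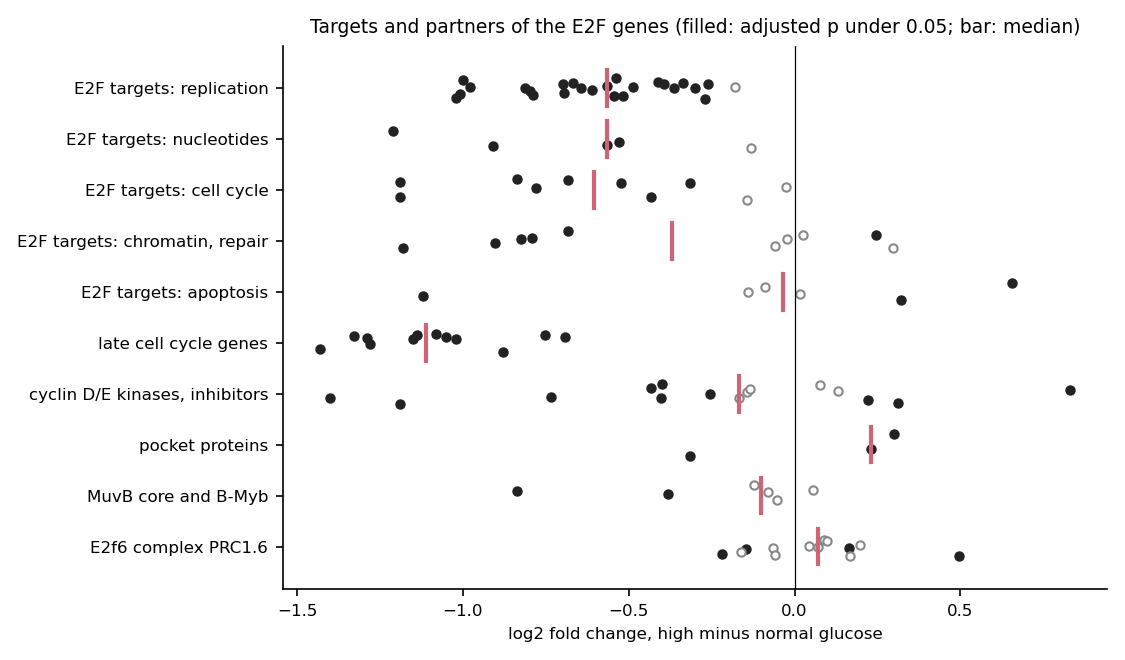
Log2 fold change, high minus normal glucose, of each tested gene in the E2F target and partner lists (filled points passed an adjusted P value of 0.05 in edgeR; bars are list medians). Replication and late cell cycle genes lie to the left of 0, with medians of -0.57 and -1.11, whereas the PRC1.6 and pocket protein lists straddle 0.

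The genes with the profile nearest to each member that fell were sought over the 6 cultures, as the smallest root mean square difference of centered log2 CPM among genes with a mean log2 CPM of at least 1. For E2f7 these were Dyrk3 (0.0441), Hmmr (0.0488) and Tll1 (0.0564), with log2 fold changes of -1.12, -1.19 and -1.17. For E2f8 they were Cspg4 (0.0857), Tmc7 (0.0934) and Pole (0.0960), the last a replication gene of the target list. For E2f2 they were Syce2 (0.0178), H2-T10 (0.0474) and Fos (0.0489), of which H2-T10 belongs to a family of similar genes whose reads may be shared. The 6 cultures fall in 2 groups, so this likeness includes the shift between them.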

How the data were processed

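Poly(A) RNA of 6 cultures was sequenced, 3 in normal and 3 in high glucose. The authors used Trimmomatic for trimming, HISAT2 for alignment to GRCm38 and StringTie for quantification, and the deposited values are raw counts per gene. Tool versions, annotation and strand setting are not given in the sources used here. The labels name TRIzol and DNBSeq, the paper a QIAGEN kit and an Illumina HiSeq. Groups and replicate numbers follow the labels, and table columns were matched to samples by condition and number.

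The analysis used edgeR 4.0.16 under R 4.3.3. Genes were kept by filterByExpr with a minimum count of 10 and a minimum total of 15. TMM factors (0.9537 to 0.9659 in high and 1.031 to 1.049 in normal glucose) were followed by the quasi-likelihood test without a block and by Benjamini-Hochberg adjustment over all 19015 tested genes, with calls at an adjusted P value under 0.05. Standard errors came from the test statistic. The biological coefficient of variation was 8.44%. Replicates of a group differed by more than sampling noise (chi-square per degree of freedom of at least 9.034). Even counts were frequent, as when both reads of a pair are counted, so intervals cover the spread between these cultures and floors counting error only. Of the gene identifiers 55141 had a symbol. Positions, exons and lengths came from GENCODE M21, promoter windows from RefSeq.

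Gene lists were written from general knowledge. The members and lists were chosen with earlier results of these data known. All 10 members are described; of each list the called genes with the lowest and highest fold change, those with the highest levels and those not tested may be named. Wdr5, Slc25a31 and target genes that did not pass are named in addition, chosen after their values were seen. Some genes of the lists are counted but not reported here by name. The fit was tested on simulated counts. Alternatives were other tests (DESeq2 1.42.0 among them), normalizations, filters, halved counts, a replicate block, removal of trends on GC content and length (mgcv 1.9.3, for 18981 of 19015 genes) and each culture left out.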

Additional observations from a re-analysis of the deposited data

How the results depend on the processing

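Of 20 settings, those that moved the number of called genes most were an adjusted P value under 0.01 (1671 lower, 1946 higher) and scaling by library totals alone (4884 lower, 1819 higher). Leaving out 1 culture gave 2048 to 3065 lower and 1988 to 3149 higher genes. The main fit had 2757 lower and 3212 higher genes. Of the 10 E2F and DP genes, 5 were lower with upper quartile factors (3407 of all genes) and with the GC and length trend removed (3241 of all genes). The same 5 of 10 was reached with that removal and the replicate block together (2852 of all genes), and 7 with library totals. Of the 10, 1 was higher in the likelihood ratio test (3301 of all genes) and in the robust fit (3253 of all genes). Without 1 culture, 3 to 4 were lower and 0 to 1 higher. E2f4 turned to -0.0594 with library totals and to -0.0109 without normal glucose replicate 2 (to 0.0834 at most without another culture), and E2f5 to -0.00601 with upper quartile factors and to -0.0781 with library totals. Of the E2F targets, 1 was higher at 0.01 and with library totals, and 2 to 4 without 1 culture, while 41 to 46 were lower in every setting run. Of the partners, 4 were higher at 0.01, with upper quartile factors, with library totals and with no filter on low counts, and 4 to 8 without 1 culture. The activator share was 48.1% in normal and 45.1% in high glucose per kilobase of all exons, and 52.8% and 50.9% on the plain CPM scale. The cause of these differences was not tested. No source used here says that same-numbered cultures were paired. Deviations of same-numbered cultures correlated at -0.0248, 0.00377 and 0.0127, and those of other pairs at -0.0428 to 0.0409. Such values, from single-gene deviations within groups of 3, cannot decide whether same-numbered cultures shared an isolation. With the replicate block 2418 genes were lower and 2909 higher, and E2f1 passed the threshold (-0.176, adjusted P = 0.0496, edgeR). Not every culture correlated best with its own number. The germ cell genes had few counts, and 4 of 7 could not be tested.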

Other observations

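Markers of other cell types of skin were low beside the fibroblast list, of which 10 of 12 rose and Thy1 fell. Of 6 smooth muscle and pericyte markers, 4 fell and 1, Rgs5, rose, and their summed level was 616 to 694 CPM in normal glucose and 517 to 543 CPM in high glucose. Of 12 endothelial markers 9 were tested, and 3 fell and 2 rose. Of 5 keratinocyte markers 2 were tested, and Krt5 rose from 0.0152 to 0.123 CPM, with normal glucose below the level that 3 counts give. Of 6 leukocyte markers 2 were tested, and both, Cd68 and Csf1r, fell (Cd68 in only 8 of 17 other fits), while Cd3e had 0 counts in all cultures. All called genes are at an adjusted P value under 0.05 in edgeR, by which 14.5% of all tested genes were lower and 16.9% higher.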
